A study of Mus musculus with 25 samples.

Results

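Cytosolic ribosomal protein genes were followed in neuronal nuclei of the mouse hippocampus. Genes were taken by symbol, as Rpl, Rplp or Rps followed by a number with or without a paralogue suffix (a, a1, l or x), or as Rpsa, and the Rps6k kinases were left out. This gave 82 of the 24411 genes in each table, 49 of the large and 33 of the small subunit. In GENCODE M21, whose build GRCm38 is mm10, 81 of them are protein coding and Rps4l is a transcribed processed pseudogene. The rule used names only, but it was chosen with earlier results of these data known.

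Nuclei were sorted with the neuronal antigen NeuN and their RNA was sequenced in 3 experiments on wild-type mice. The aging experiment held 3 young libraries (3 months) and 2 aged libraries (18 months). The overexpression experiment held 5 control libraries (GFP) and 7 libraries labelled Ftl1 OE, all from mice of 3 months, in which the lentivirus expressed GFP or Ftl1, the ferritin light chain, from the neuronal synapsin-1 promoter. The knockdown experiment held 4 control libraries (shRNA to luciferase, sh-Luc) and 4 libraries labelled Ftl1 KD (shRNA to Ftl1), all from mice of 18 months, and that vector was not restricted to neurons by its promoter. Injections were aimed at CA1 and the dentate gyrus, and the described sort used DNA stain and NeuN but no marker of infection.

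A cytosolic ribosome joins a small subunit, which reads the mRNA, and a large subunit, which forms peptide bonds, and each holds 1 copy of nearly every one of its proteins. The messages of these proteins are short and abundant, and in mammals most begin with a C followed by an uninterrupted stretch of C and T, the terminal oligopyrimidine (TOP) element, through which growth signals set how strongly they are translated. In a neuron the translated pool is in the cytoplasm and in the processes, whereas RNA of sorted nuclei reports transcripts that have not left the nucleus, with whatever cytoplasm stays attached.

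The starts of the messages were read for the TOP element. In RefSeq (GRCm38.p6) 61 of the 82 genes had an annotated start. Unbroken runs of C or T on the transcript's strand were counted if they touched the start or the 5 bases on either side. Runs could extend beyond the windows shown, which hold 30 bases, 10 before the start and 20 from it. A run of at least 7 bases was present in 25 of 61 members (41.0%) against 3796 of 27025 genes with a window (14.05%), in 40.5% of large and 41.7% of small subunit members. The first base was C in 32.8% of members and in 16.2% of all genes. The windows of 3 genes with a long run that were lower in the libraries labelled Ftl1 OE by DESeq2, and of 3 genes that stood apart from most members, are shown 5′ to 3′ with the longest run in capitals.
Rpl38, chr11:114668570-114668599, plus strand: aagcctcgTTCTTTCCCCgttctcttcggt
Rpl35, chr2:39005112-39005141, minus strand: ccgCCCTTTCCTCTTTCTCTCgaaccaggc
Rpl28, chr7:4792955-4792984, plus strand: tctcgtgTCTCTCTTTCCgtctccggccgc
Rps27, chr3:90213629-90213658, minus strand: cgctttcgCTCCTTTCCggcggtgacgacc
Rpl5, chr5:107900518-107900547, plus strand: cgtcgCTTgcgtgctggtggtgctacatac
Rps3a1, chr3:86142649-86142678, minus strand: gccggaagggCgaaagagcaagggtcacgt
Rps27 carried a long run, whereas the listed starts of Rpl5 and Rps3a1 did not. Rpl28, Rpl35 and Rpl38 were chosen for their long runs. Other genes lower by DESeq2 had short ones, such as Rpl37 and Rpl41 with 3 bases and Rps16 with 2. Rpl4, which also stood apart, had a run of 14 bases, but it ended before the listed start, whose first base was G.

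The files hold normalized counts, that is reads divided by the size factor of each library, and whole reads were recovered from them. Libraries held 7969282 to 9537872 reads in the aging, 9943996 to 17034325 in the overexpression and 48902 to 358560 in the knockdown experiment, so that ribosomal protein genes rested on 581 to 2552 reads per library in the last. Among the overexpression libraries, control 9905 stood apart, with a median normalized count over all genes of 1.35 against 17.4 to 43.2 in the others, and control 9926 had the second highest share of ribosomal protein reads. By western blot the paper reported hippocampal FTL1 protein that moved as labelled. Normalized counts of Ftl1 did not follow the labels. They were 4580 to 28309 in the control and 4737 to 7663 in the libraries labelled Ftl1 OE, which overlapped. The log2 fold change was −0.67 (SE 0.34, adjusted p = 0.681 with limma). In the knockdown experiment they were 24.2 to 56.2 in the control and 106 to 139.6 in the libraries labelled Ftl1 KD, without overlap. There it was 1.47 (SE 0.25, adjusted p = 2.2e-04 with limma). Directions below are therefore those of the labels. The 3 tables were normalized separately and were tested separately.

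In young nuclei, levels of the members spread widely when set per kilobase of transcript. The highest was Rps2, a protein of the decoding side of the small subunit, with a normalized count of 1326 per kilobase, followed by Rpl4 with 816, Rpl41 with 801 and Rpl19 with 801. Rps2 was 1323 ± 48.2 (SD, n = 3) before division by length and Rpl4 1255 ± 377. Among members with reads, Rpl3l was lowest with 2.06 per kilobase, and Rpl26 with 57.5 and Rps24 with 60.4 were next but for Rps20, whose 10.98 rests on an annotated transcript of 3706 bases. Rpl10l and Rpl39l were listed at 0 in every library of the study.

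Ribosomal protein transcripts were higher in aged than in young nuclei. The large subunit sum was 12414, 14197 and 17450 in the young and 19732 and 20768 in the aged libraries, a ratio of the means of 1.38. The small subunit sum was 7991, 8803 and 10332 in the young and 13620 and 13953 in the aged libraries, a ratio of 1.52. The groups did not overlap for either subunit, and ribosomal protein reads made up 0.247 to 0.327% of the reads in young and 0.388 to 0.396% in aged libraries. Fewer nuclei of a type and less RNA per nucleus cannot be told apart in these bulk samples.

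Gene by gene, 75 of 80 tested members had a positive log2 fold change, against 48.3% of all 13712 genes tested. Groups did not overlap, with aged above young, for 50 members (27 large and 23 small), against 12.2% of all genes. No member passed an adjusted p of 0.05 with limma, nor did any other gene in this direction (0%), and 18 members (10 large and 8 small) had an unadjusted p below 0.05, against 2.9% of all genes. The median log2 fold change was 0.61 for the large and 0.60 for the small subunit, and −0.03 for all genes tested. With DESeq2, which called 0.241% of all genes as higher, 1 member passed.

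That member was Rps19, a small subunit protein whose loss in humans causes Diamond-Blackfan anemia. Its normalized count was 215, 173 and 193 in the young and 589 and 447 in the aged libraries. The log2 fold change was 1.41 (SE 0.38, adjusted p = 0.441 with limma), and the adjusted p was 0.033 with DESeq2. Both aged values lay above all young ones.

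The stalk proteins of the large subunit, which recruit elongation factors, all lay higher in aged libraries. Rplp1 was 168, 225 and 209 in young and 569 and 451 in aged nuclei (log2 fold change 1.34, SE 0.38). Rplp2 was 57.0, 98.6 and 79.9 against 186 and 144 (1.09, SE 0.57), and Rplp0, which anchors both to the ribosome, was 538, 595 and 571 against 978 and 872 (0.70, SE 0.29). Groups did not overlap for any of the 3 genes, and none of the adjusted p-values reached 0.05 here. The paper's own DESeq2 list of genes increased with age held Rplp1 as well as Rps19.

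Other members differed in how firmly their values sat. Rpl26 had the highest log2 fold change, 1.76 (SE 0.92), on counts of 28.0, 9.54 and 53.2 against 88.0 and 82.7. Rps20 reached 1.41 (SE 1.12), but its young values were 4.15, 59.4 and 58.6 against 63.3 and 76.2. Without young library 1 its log2 fold change was 0.23. Rpl41, the shortest ribosomal protein, was 292, 393 and 364 against 689.8 and 753 (1.05, SE 0.33). Rpsa, a small subunit protein also known as the laminin receptor, was 495, 755 and 603 against 1227 and 1119 (0.94, SE 0.30). Rps2, with the steadiest young values, was 1291, 1378 and 1299 against 2114 and 1902 (0.60, SE 0.26).

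The 5 members with a negative log2 fold change were Rpl5, Rpl4, Rps27, Rpl39 and Rps4x. Rps4x, at −0.07 (SE 0.49), had a mean normalized count of 369.7 in young and 400.4 in aged libraries, and its log2 fold change was 0.11 with edgeR and 0.12 with DESeq2. Rpl5, which carries 5S ribosomal RNA into the large subunit together with Rpl11, was 799.6, 993 and 1116 in young and 724 and 677 in aged libraries (−0.46, SE 0.29, adjusted p = 0.698). It was the only tested member whose aged values all lay under the young ones, a pattern that 12.5% of all genes showed. Rpl4, whose long loop lines the exit tunnel, was 901, 1652 and 1211 against 757 and 1273 (−0.31, SE 0.34). Rps27, a zinc-binding small subunit protein, was 298, 203 and 149 against 130.5 and 235 (−0.25, SE 0.49), and its groups overlapped. As a share of ribosomal protein reads, Rpl5 was 4.12% in young (3.58 to 4.85%) and 2.06% in aged libraries (1.95 to 2.17%).

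The balance between the subunits moved little with age. The large subunit took 60.8, 62.8 and 61.7% of ribosomal protein reads in the young and 59.2 and 59.8% in the aged libraries, so that the groups did not overlap. For young library 1 the 95% Wilson interval was 60.2 to 61.5%, and for aged library 3 it was 59.3 to 60.3%, so the nearest libraries of the groups met at the edge of counting error. On the log2 scale, where every gene weighs the same, the mean of the large minus that of the small subunit was 0.03, 0.03 and −0.03 in young and −0.02 and 0.09 in aged libraries, which overlapped. Rpl4 and Rpl5, abundant in young nuclei, weigh in the first measure and hardly in the second.

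**Figure D1:**
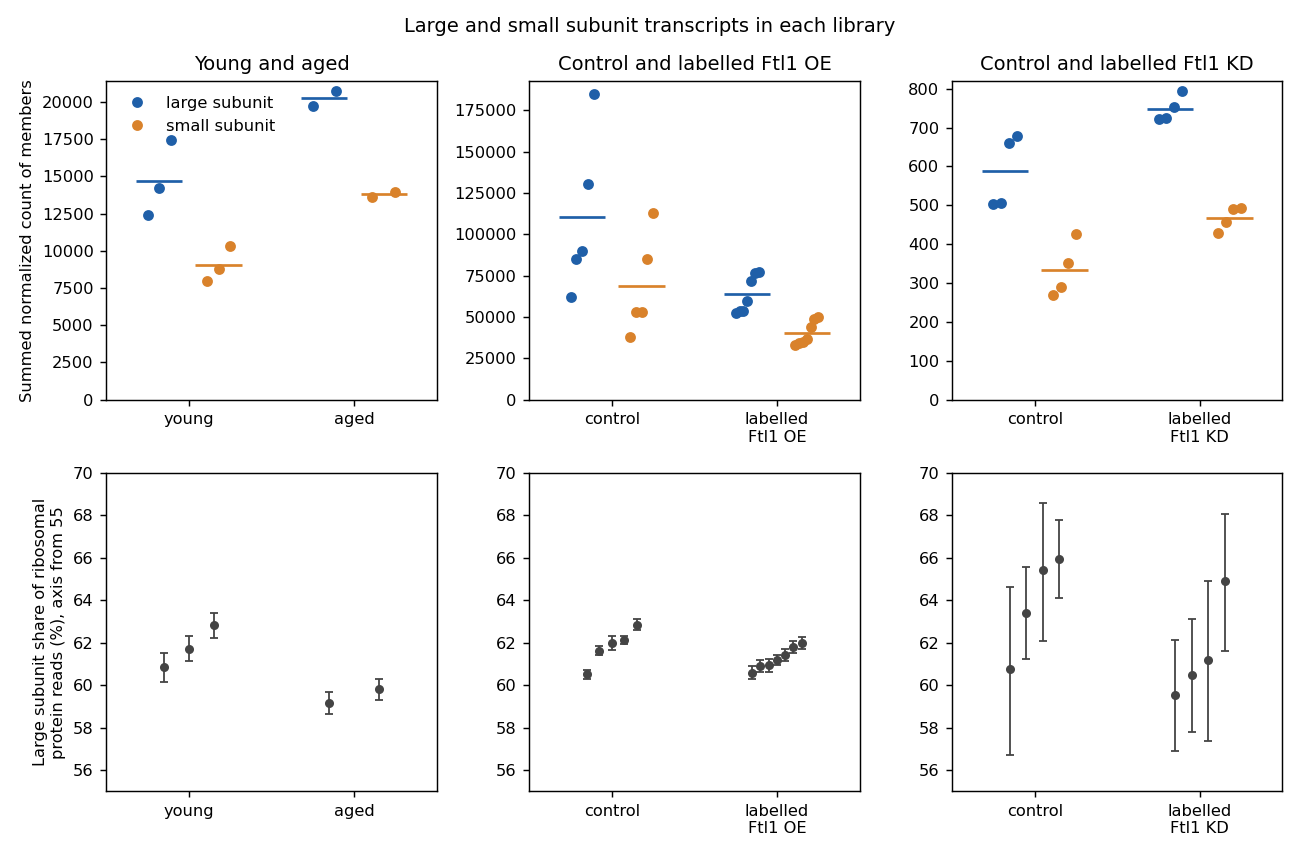
The upper panels plot the summed normalized count of the 49 large (blue) and 33 small (orange) subunit genes in each library of the 3 experiments, with a line at the group mean, and the lower panels the large subunit share of ribosomal protein reads in percent with its 95% Wilson interval, on an axis from 55. Sums do not overlap between groups in the aging and knockdown experiments, though the small subunit sums of the knockdown groups nearly touch. They overlap in the overexpression experiment, where control 9905 is the highest point. Shares stay between 59.2 and 65.9%.

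In the overexpression experiment the direction was the opposite one, with lower ribosomal protein transcripts in the libraries labelled Ftl1 OE, and its size rested in part on 2 controls. The large subunit sum was 110534 ± 48309 (SD, n = 5) in control and 63589 ± 11261 (n = 7) in labelled libraries, a ratio of 0.575, and the small subunit sum was 68449 ± 30122 and 40210 ± 7256, a ratio of 0.587. The control libraries ran from 62295 to 185045 and the labelled ones from 52569 to 77266 for the large subunit, so that the groups overlapped. Control 9905 was the highest of all 12 libraries in 70 of 79 tested members. Without controls 9905 and 9926, the ratios were 0.804 and 0.835.

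Of the 79 tested members, 76 had a negative log2 fold change, against 42.6% of all 14099 genes tested, and the medians were −0.72 for the large and −0.71 for the small subunit, with 0.10 for all genes. Without controls 9905 and 9926, 75 of 79 were lower, against 54.3% of all genes, and the medians were −0.37 and −0.35, with −0.05 for all genes. Leaving out control 9905 alone gave −0.51 for both subunits. No gene passed an adjusted p of 0.05 as lower with limma (0%) or with edgeR (0%). An unadjusted p below 0.05 was reached by 62 members (38 large and 24 small), against 3.66% of all genes, and without the 2 controls by 14 as lower, against 2.01%, and by Rps27 alone as higher.

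DESeq2 on the recovered reads called 1.24% of 6718 genes with an adjusted p as lower, and 22 of 75 members were among them, 12 of the large and 10 of the small subunit. Without controls 9905 and 9926 it called 0 of 2894 genes with an adjusted p in either direction, so that none of the 22 calls remained. That fit had fewer controls, and only 44 members had an adjusted p and could be called. Groups did not overlap, with the labelled libraries lower, for 8 members, against 0.411% of all genes. These were Rpl34 and Rpl38 of the large and Rps7, Rps23, Rps25, Rps26, Rps27a and Rps29 of the small subunit. Leaving out controls cannot undo such a separation, so these 8 had to stay separated without the 2 controls. No further member was separated then, where 1.23% of all genes were.

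Rps29, a zinc-binding protein of the small subunit head, was 1395, 1006, 2811, 1143 and 2216 in controls 9901, 9904, 9905, 9925 and 9926, and 457 at the lowest, 709.7 at the median and 842 at the highest in the libraries labelled Ftl1 OE. The log2 fold change was −1.30 (SE 0.27, adjusted p = 0.499 with limma and 0.00462 with DESeq2) and −0.86 without the 2 controls. All controls lay above all labelled libraries, the 3 remaining ones by a narrower distance. Rpl38, which is known from mouse mutants for its part in the translation of Hox messages, was 767, 588, 1639, 809 and 1024 in the same controls and 262, 425 and 530.0 at the lowest, median and highest of the labelled libraries. Its log2 fold change was −1.18 (SE 0.27) and −0.84 without the 2 controls.

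Rps26, which lies where mRNA leaves the small subunit, was 673, 497, 979, 652 and 741 in the controls and 309, 389 and 494 at the lowest, median and highest of the labelled libraries. Its log2 fold change was −0.84 (SE 0.23). Rps27a, made as a fusion with ubiquitin, was 1575, 1269, 2610.0, 1465 and 1787 in the controls and 860.0, 1070.2 and 1174 in the labelled libraries (−0.75, SE 0.20). For both genes the distance between the lowest control and the highest labelled library was small beside the spread within the controls.

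Some of the largest differences belonged to genes whose groups overlapped or nearly touched. Rps28 had the most negative log2 fold change, −1.31 (SE 0.37), on counts of 278, 249.5, 841, 339 and 654 in the controls and 121, 162 and 256 at the lowest, median and highest of the labelled libraries. Rpl41 was 2848, 2352, 10083, 3625 and 6342 against 1500.1, 1907 and 2825 (−1.12, SE 0.31), and Rpl37 was 977, 837, 3274, 1093 and 2288 against 457, 688 and 924 (−1.16, SE 0.33). Control 9904 lay inside the range of the labelled libraries for all 3 genes, and control 9905 lay farthest above it.

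The stalk genes followed the same order. Rplp1 was 1789.7, 951, 5953, 2008 and 3628 in the controls and 792, 986 and 1738 at the lowest, median and highest of the labelled libraries (−1.11, SE 0.36). Rplp2 reached −0.95 (SE 0.27) and Rplp0 −0.59 (SE 0.28). Rpsa was 3849, 2483, 9995, 3816 and 6272 against 2619.8, 3447 and 5367 (−0.41, SE 0.30), and its log2 fold change was 0.10 without the 2 controls, so that its direction rested on them.

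Members that stood apart in this experiment were Rps27, Rpl22 and Rpl4, with a positive log2 fold change, and Rps4l, Rpl5 and Rps3a1, which were close to 0. Rps27 was 98.7, 52.9, 176, 70.5 and 276 in the controls and 77.2, 156 and 564 at the lowest, median and highest of the labelled libraries (0.65, SE 0.54, adjusted p = 0.76). Without the 2 controls it was 1.30 (adjusted p = 0.839). Its groups overlapped, and 1 labelled library, 9895, held the value of 564. Rpl22, a large subunit protein that mice can live without, was 474, 398, 686, 739 and 472 against 452, 564 and 937 (0.16, SE 0.25).

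Rpl5 and Rpl4 did not share the high values of control 9905. Rpl5 was 2074, 1696, 1085, 1742 and 1477 in the controls and 1041, 1598 and 1894 at the lowest, median and highest of the labelled libraries (−0.11, SE 0.20). Rpl4 was 3332, 3642, 2077, 2956 and 1627 against 2389, 2714 and 2984 (0.06, SE 0.20), and −0.28 without the 2 controls. Rps3a1 was 1838, 1439.5, 764, 1592 and 1598 against 900.1, 1282 and 1679.5 (−0.12, SE 0.23). Control 9905 was the lowest control for Rpl5 and Rps3a1, and controls 9905 and 9926 were the lowest for Rpl4.

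**Figure D2:**
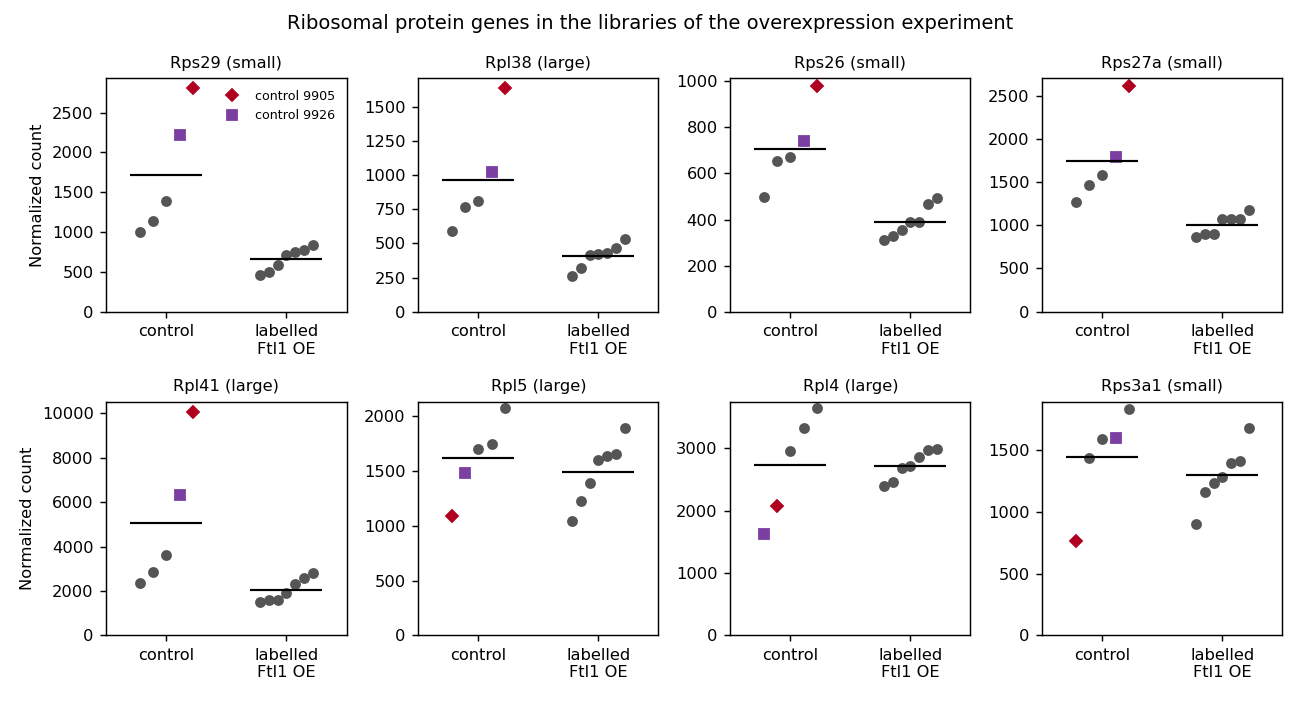
Normalized count of 8 members in each of the 12 overexpression libraries, each on an axis from 0, with a line at the group mean, control 9905 as a red diamond and control 9926 as a purple square. Rps29, Rpl38, Rps26 and Rps27a separate the groups and Rpl41 does not. Rpl5, Rpl4 and Rps3a1 have control 9905 at or near the bottom of the controls.

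The subunits did not part from each other here. The large subunit share was 60.5 to 62.8% in control and 60.6 to 62.0% in labelled libraries. The mean log2 level of the large minus that of the small subunit was 0.13 to 0.38 in control and 0.18 to 0.37 in labelled libraries, a difference of −0.05 between the groups with overlapping ranges.

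Coding length ordered the members in this experiment. Across the 78 tested protein-coding members, Spearman's rho between coding length and log2 fold change was 0.65, and 0.62 without controls 9905 and 9926. These points share libraries and depth, so rho is a description. The 26 members with the shortest coding sequence (75 to 399 bases) had a median log2 fold change of −0.93, the next 26 members (405 to 564 bases) −0.78 and the longest 26 (576 to 1257 bases) −0.58. Other protein-coding genes of those lengths had medians of −0.36, −0.16 and 0.02, so that members were lower than genes of like length in each class and followed the same order. Without the 2 controls the member medians were −0.49, −0.37 and −0.24, and those of the other genes −0.25, −0.17 and −0.05. The part of length in the result was not tested. In aging rho was −0.25 (79 genes) and in the knockdown experiment −0.05 (45 genes). Short, middle and long members had medians of 0.57, 0.39 and 0.39 in the knockdown experiment. Other protein-coding genes of those lengths had 0.39, 0.28 and 0.16, so they too were mostly higher there. In aging the member medians were 0.71, 0.72 and 0.45, and those of the other genes 0.19, 0.08 and −0.03.

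**Figure D3:**
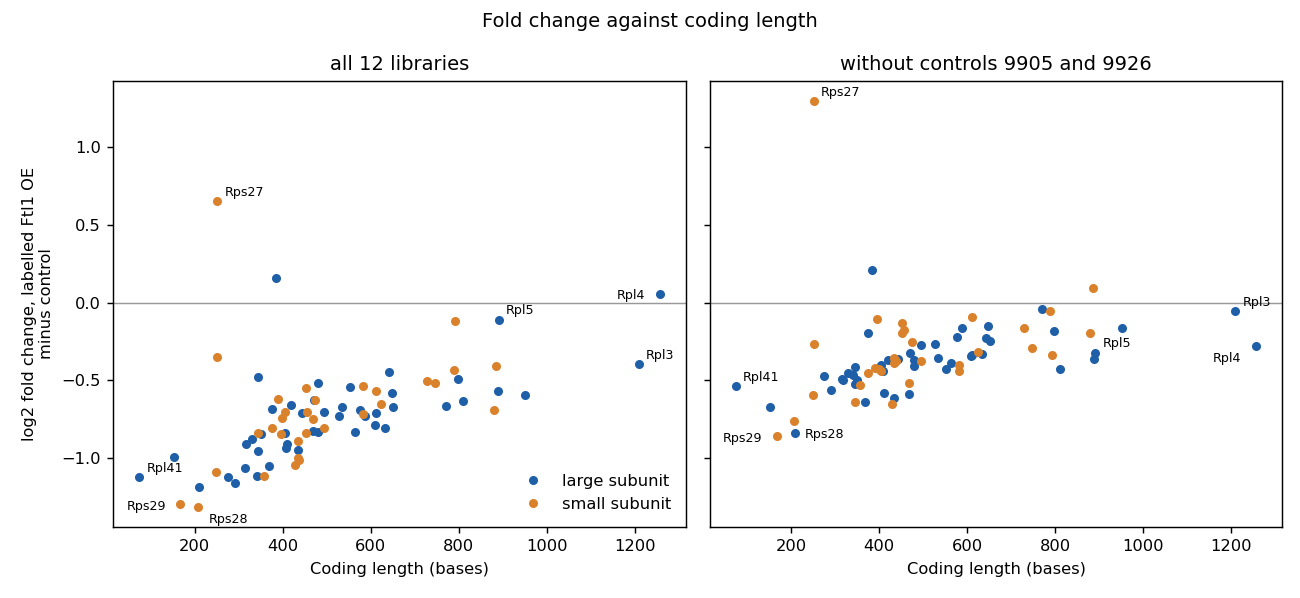
Log2 fold change of each protein-coding member, labelled Ftl1 OE minus control, against its coding length in bases, for all 12 libraries on the left and without controls 9905 and 9926 on the right. Short genes such as Rps29 and Rps28 lie lowest, Rpl4 with the longest coding sequence lies near 0 on the left, and Rps27 lies above all others in both panels.

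Members with and without a long pyrimidine run near the listed start hardly parted. In the overexpression experiment the median was −0.71 for 24 members with a run of at least 7 bases and −0.77 for 34 with a shorter one. In aging the medians were 0.52 (24 genes) and 0.66 (35 genes), and in the knockdown experiment 0.50 (11 genes) and 0.46 (22 genes). These numbers describe the RefSeq start alone, which may not be the start used in neurons.

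In the knockdown experiment ribosomal protein transcripts were higher in the libraries labelled Ftl1 KD. The large subunit sum was 587 ± 95.6 in control and 748 ± 33.2 in labelled libraries (SD, n = 4 each), a ratio of 1.27, and the small subunit sum was 334 ± 71.1 and 467 ± 30.3, a ratio of 1.40. Neither pair of groups overlapped, but the small subunit sums nearly touched. The highest control was 426.9 and the lowest labelled library 429.0, on 228 and 292 small subunit reads. Ribosomal protein reads made up 0.595 to 0.853% of reads in control and 1.32 to 1.39% in labelled libraries. The 45S precursor gene Rn45s took 31.9 to 55.3% of the control and 30.3 to 34.5% of the labelled reads, and with it left out the shares were 1.17 to 1.81% and 1.99 to 2.04%, which still did not overlap.

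At this depth 45 members, 28 large and 17 small, were tested. Of these, 41 had a positive log2 fold change, against 49.5% of all 1460 genes tested, and the median log2 fold change was 0.38 for the large and 0.60 for the small subunit, with −0.01 for all genes. Rps4x, Rps2, Rpsa and Rpl7 passed an adjusted p of 0.05 with limma, 4 of 45 members against 10.5% of all genes, so the share called was no larger than the background. With edgeR 5 members passed, against 13.2%, the fifth being Rps3a1. An unadjusted p below 0.05 as higher was reached by 9 members (2 large and 7 small), against 17.5%, and groups did not overlap for 7 (Rpl7, Rpl32, Rps2, Rps4x, Rps6, Rps14 and Rpsa), against 11.8%.

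Rps4x, an X-linked small subunit protein, rose in the libraries labelled Ftl1 KD. It was 10.4, 7.26, 11.2 and 2.93 in the control and 23.0, 23.4, 16.4 and 17.6 in the labelled libraries (log2 fold change 1.35, SE 0.40, adjusted p = 0.0152). Rps2 was 28.3, 28.6, 37.4 and 30.1 against 54.7, 57.7, 47.4 and 48.5 (0.73, SE 0.25, adjusted p = 0.0312). All 4 labelled values lay above all control values for both genes.

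Rpsa was 31.1, 30.3, 35.6 and 32.2 in the control and 44.1, 58.6, 51.0 and 57.3 in the labelled libraries (0.69, SE 0.24, adjusted p = 0.0397). Rpl7, a large subunit protein, was 10.4, 12.1, 14.98 and 7.11 against 31.6, 16.2, 18.2 and 22.04 (0.92, SE 0.34, adjusted p = 0.0496). When each of the 8 libraries was left out in turn, Rps4x passed in 5 of the 8 fits, Rps2 and Rpsa in 2 and Rpl7 in 1. The count of members called was 0 without control 5 or labelled library 3, 1 without control 1 or labelled library 1, 2 without control 2 or labelled library 4 or 5, and 8 without control 3.

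Members that missed the threshold included Rpl32, 6.61, 6.45, 3.74 and 8.36 against 12.5, 18.0, 12.8 and 11.8 (1.04, SE 0.47, adjusted p = 0.103), and Rps3a1, 16.04, 11.3, 16.9 and 4.18 against 30.7, 21.6, 23.7 and 13.2 (0.93, SE 0.39, adjusted p = 0.077). Members with a negative log2 fold change included Rpl21, Rpl29 and Rpl13a. Rpl21 was 16.04, 11.7, 22.5 and 15.05 against 13.4, 13.5, 14.6 and 13.2 (−0.20, SE 0.33), and its groups overlapped. The stalk genes gave 0.54 for Rplp0 (SE 0.27) and 0.03 for Rplp1 (SE 0.31), and Rpl5 gave 0.18 (SE 0.41).

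The small subunit medians were above the large ones in this experiment, within an uncertain margin. The mean log2 level of the large minus that of the small subunit was 0.42, 0.31, 0.00 and 0.31 in the control and −0.02, −0.19, −0.04 and 0.26 in the labelled libraries, a difference of −0.26 against a pooled SD of 0.185, and the groups overlapped. With no filter on low values the difference was 0.14, so that its sign rested on which genes were abundant enough to be tested. As a share of reads, the large subunit took 60.8 to 65.9% in control and 59.6 to 64.9% in labelled libraries, and the Wilson interval of a single library was as wide as 56.7 to 64.6%.

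**Figure D4:**
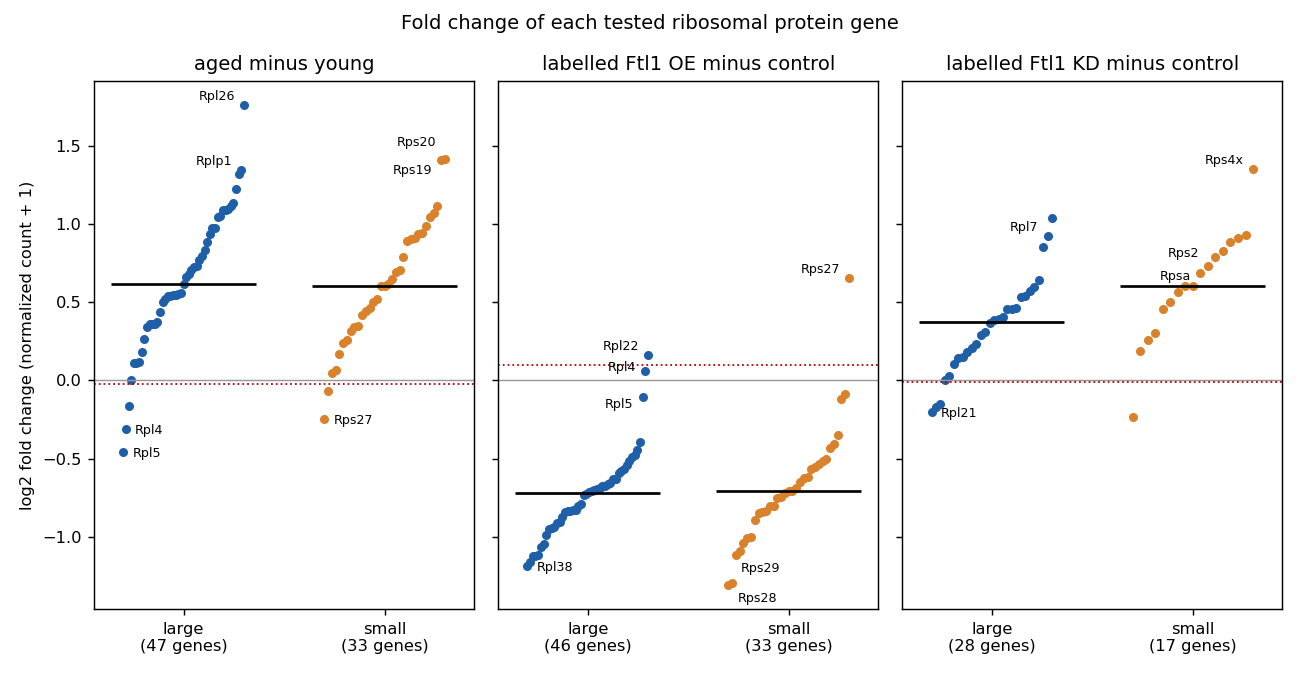
Log2 fold change of normalized count plus 1 for each tested member in the 3 experiments, large subunit in blue and small subunit in orange, ordered by value within a subunit, with a black line at the subunit median and a red dotted line at the median of all genes tested. Medians are 0.61 and 0.60 in aging, −0.72 and −0.71 in the overexpression and 0.38 and 0.60 in the knockdown experiment.

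Several members have paralogues whose use differs between tissues. How far reads can be told apart depends on how much the sequences differ. The coding sequences of Rps27 and Rps27l, of 252 bases each, are 76.2% identical, with 60 differing positions and a longest identical run of 11 bases, and are shown since the pair parted most between experiments. Their coding sequences (GRCm38, reference genome with GENCODE M21 exons, gene spans chr3:90212522-90213651 on the minus and chr9:66946086-66949516 on the plus strand) are given without the stop codon and with the differing bases in capitals.
Rps27: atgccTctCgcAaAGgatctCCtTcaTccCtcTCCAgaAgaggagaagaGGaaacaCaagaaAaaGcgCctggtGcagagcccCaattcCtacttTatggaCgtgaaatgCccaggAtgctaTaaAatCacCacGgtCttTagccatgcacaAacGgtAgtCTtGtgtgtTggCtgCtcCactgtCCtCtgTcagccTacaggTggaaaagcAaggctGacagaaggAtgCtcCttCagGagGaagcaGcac
Rps27l: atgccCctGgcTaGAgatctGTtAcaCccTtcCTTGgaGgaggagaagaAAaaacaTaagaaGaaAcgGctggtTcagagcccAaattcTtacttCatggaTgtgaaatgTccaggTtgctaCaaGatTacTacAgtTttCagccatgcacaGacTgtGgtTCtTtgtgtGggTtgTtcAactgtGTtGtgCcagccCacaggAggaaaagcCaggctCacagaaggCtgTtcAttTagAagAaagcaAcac
Rpl39 and Rpl39l are closer, with 85.0% identity and a longest identical run of 38 bases, and Rpl39l had no read.

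The share of Rps27l among reads of the pair was 10.3 to 30.6% in young and 18.2 to 27.5% in aged libraries. In the overexpression experiment it was 60.5 to 81.5% in control and 32.2 to 79.4% in labelled libraries, both on mice of 3 months. Rps27l itself was 51.0 ± 15.8 in young and 50.9 ± 2.08 in aged libraries, and 324 ± 85.1 and 253 ± 61.3 in the control and labelled overexpression libraries. Rps27 took 0.945% of ribosomal protein reads in young and 0.0721% in the overexpression controls, so that the pair was at unlike levels in experiments that were normalized separately. The cause was not tested.

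Rpl36al, an autosomal paralogue of the X-linked Rpl36a, took 70.2 to 87.1% of the pair in young and 58.1 to 67.4% in aged libraries, without overlap, and Rpl36a itself was 42.6 in young and 93.5 in aged libraries on average. In the overexpression experiment the share was 64.3 to 79.2% and 70.7 to 78.4%. Rpl7l1, a relative of Rpl7, took 42.9 to 48.2% of its pair in young and 29.0 to 40.5% in aged libraries. Both shares were lower where the named member was higher, and the log2 fold changes of Rpl36al and Rpl7l1 themselves were 0.13 (SE 0.52) and −0.11 (SE 0.42). In the knockdown experiment Rps4l took 33.3 to 46.2% of its pair with Rps4x in control and 7.69 to 18.8% in labelled libraries, on 2 to 14 reads of Rps4l per library. Rps4l and Rps4x may share reads, and counts of the pair are uncertain for that reason. Rpl3l, a muscle paralogue of Rpl3, had 0 to 59 reads. The 7 listed ribosomal protein pseudogenes held reads equal to 0.864, 0.405 and 0.311% of the member reads in the 3 experiments.

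Related gene groups were set beside the members. Of 6 ribosomal proteins and relatives with other names, all had lower values in the overexpression experiment, and Fau, which encodes a small subunit protein fused to a ubiquitin-like protein, had a log2 fold change of −1.04. In aging 4 of 6 were higher (median 0.21), and in the knockdown experiment the 3 tested ran from −0.79 (Fau) to 0.75, with 1 higher and 2 lower, and 1 in each direction had an unadjusted p below 0.05. Translation factors and other messages known for a TOP start had medians of 0.15 in aging (14 of 16 higher), −0.26 in the overexpression (13 of 16 lower) and 0.58 in the knockdown experiment (7 of 7 tested higher). Eef1a1, the main elongation factor, rose in the last, from a mean of 98.6 to 239 (1.29). It was the only gene of the 7 tested in that list to pass, where 10.5% of all genes passed as higher. Without controls 9905 and 9926, the overexpression median of that list was −0.10 (13 of 16 lower). For the 6 ribosomal proteins and relatives it was −0.31 (5 lower), against −0.59 with all libraries.

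Genes that build ribosomes had medians near those of all genes. Of the 66 listed, medians were −0.06 in aging (65 tested) and 0.08 in the overexpression experiment, beside −0.03 and 0.10 for all genes. The 77 proteins of the mitochondrial ribosome had a median of 0.11 in aging (50 higher, 27 lower), and 4 tested in the knockdown experiment had −0.95. In the overexpression experiment their median was −0.37, with 69 lower. Of these, 24 had an unadjusted p below 0.05 with limma, against 3.66% of all genes. Without controls 9905 and 9926 the median was −0.18, with 60 lower. Then 4 had such a p as lower, against 2.01% of all genes. No gene of these groups passed with limma in aging or the overexpression experiment. None of all 13712 and 14099 genes tested did (0%), so this does not describe the groups.

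Markers of cell types were summed as a check of the labelled nuclei. Neuronal markers summed to 39909 to 51427 in young and 50312 to 50344 in aged, 62502 to 88931 and 60268 to 77359 in the control and labelled overexpression, and 238 to 337 and 254 to 266 in the control and labelled knockdown libraries, and the groups overlapped in each experiment. Microglial markers were 3147 to 7134 in control and 1959 to 3293 in labelled overexpression libraries, which overlapped. Control 9905 had the highest newborn neuron sum, 26558 against 8380 to 14906 in the other overexpression libraries. Its astrocyte sum was the lowest, 13795 against 20731 to 65096. Its neuronal and microglial sums lay within the range of the others. The groups overlapped for both the newborn neuron and the astrocyte list, and their part in the result was not tested. In the knockdown experiment, newborn neuron markers were 85.5 to 159 in control and 320 to 383 in labelled libraries, with Eomes at 0 in all. Oligodendrocyte markers were 39.7 to 97.2 and 10.9 to 24.4, with Ermn at 0. Markers of oligodendrocyte precursors went the other way, with 2.09 to 16.9 in control and 18.2 to 31.0 in labelled libraries. Nuclear noncoding RNAs were 619 to 1237 and 224 to 321, and all 4 that were tested fell. The newborn neuron, oligodendrocyte, precursor and noncoding RNA sums separated the same groups as the ribosomal protein sums, and their part in the result was not tested. In aging Rn45s took 2.63 to 4.0% of young and 5.91 to 6.42% of aged reads, also without overlap, and its part was not tested.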

How the data were processed

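The authors sorted NeuN+ nuclei and, per the labels' processing notes, aligned reads with STAR to mm10, counted them with RSEM and normalized them with DESeq2. The paper describes Smart-seq2 libraries and the labels polyA-enriched stranded ones. The authors deposited 1 table per experiment with a normalized count per gene and library, a signal that is reads divided by a size factor, and whole reads were recovered for 100% of values. Columns with the authors' own comparisons (mean, fold change, error, statistic, p-values) were not used, and 0 library columns were left unused.

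Each experiment was tested with limma 3.58.1 (R 4.3.3, trend in the prior variance) on log2(normalized count + 1), over genes with a mean of at least 10, with Benjamini-Hochberg adjustment over all of them. A gene was called at an adjusted p of 0.05, for aging also at an absolute log2 fold change of 0.5. This fold change understates the change of low genes. All adjusted p-values are from limma unless edgeR 4.0.16 or DESeq2 1.42.0, run on the recovered reads, is named. The fits were tested on simulated data. Where labels do not name separate mice, p-values measure the spread between libraries. Wilson intervals of 95% cover counting error only.

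The members and lists were chosen with earlier results of these data known. Named were members past the threshold, the 4 highest and 4 lowest log2 fold changes and up to 4 with the rarer sign in each experiment, the 4 highest and 4 lowest levels per kilobase in young libraries, paralogue pairs, stalk genes, Rpsa and Rps27a. Rps26, Rps6, Rps14 and the other members listed by non-overlap or DESeq2 were named after their values were seen, and Rpl28 and Rpl35 were chosen for their starts. Results of some genes are not reported here.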

Additional observations from a re-analysis of the deposited data

Results flagged for a closer look

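Within-group outliers were looked for in the named members and in the subunit sums, shares and large minus small values of the libraries. This covered 126 groups of 4 to 7 libraries in the overexpression and knockdown experiments. The measure was the gap of the highest or lowest library to its neighbour as a share of the group's range. Such a test marks about 1 group in 20 by chance, and 3 were marked (2.38%), 0 of them for control 9905. Rps27 was 564 in the library labelled Ftl1 OE 9895 and 77.2 to 268 in the 6 others. Rpl32 was 18.0 in the library labelled Ftl1 KD 3 and 11.8 to 12.8 in the others. Rps27a was 21.1 in the library labelled Ftl1 KD 1 and 13.5 to 14.7 in the others.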

How the results depend on the processing

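Medians kept their sign under other pseudocounts, filters, scalings and tests and with each library left out. Without 1 library in turn they ran from 0.58 to 0.73 (large) and 0.50 to 0.72 (small) in aging, −0.93 to −0.51 and −0.86 to −0.51 in the overexpression, and 0.23 to 0.46 and 0.50 to 0.77 in the knockdown experiment, where no filter gave 0.30 for the small subunit. With DESeq2, 138 genes and 1 member were called in aging and 91 genes and 22 members in the overexpression experiment, against 0 with limma, and leaving out a library there gave 0 to 1 genes. With DESeq2 and controls 9905 and 9926 left out, an alternative chosen after seeing the data, 0 of 2894 genes with an adjusted p were called. In the knockdown experiment 354 genes were called, 18 at a mean of at least 100, where no member was left, and 244 to 437 without 1 library. The 4 calls among members became 2 with no filter, 0 at a mean of 100, 7 with median centring and 0 to 8 without 1 library. Large minus small in aging (0.03) was −0.011 at a mean of 100, 0.0902 with edgeR and 0.0916 with DESeq2, and 0.0082 to 0.083 without 1 library. In the knockdown experiment (−0.26) it was 0.14 with no filter and −0.40 to −0.17 without 1 library. The cause was not tested.

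In the knockdown experiment, same-number correlations of −0.03, −0.02 and −0.05 gave no sign that replicate numbers pair the samples. With the replicate block 173 genes and 1 member were called there. In aging the same-number correlations were −0.05 and 0.02. They cannot decide on pairing, because for every young library the values with the aged libraries were equal and of opposite sign. Signs that changed with the block were Rps27 (0.012), Rps27l (−0.21) and Rps4l (−0.52) in aging. With edgeR and DESeq2 in aging, Rps27l was −0.012 and −0.0031, Rps4l −0.092 and −0.083 and Rps4x 0.11 and 0.12. In the overexpression experiment Rpl4 was −0.038 with median centring, −0.00062 with DESeq2 and −0.28 without both controls, which gave 0.24 for Rps4l and 0.10 for Rpsa. Signs also changed without 1 library for Rpl39 (−0.66 to 0.34), Rpl4 (−0.68 to 0.065), Rps27 (−0.67 to 0.18), Rps27l (−0.21 to 0.25), Rps4l (−0.52 to 0.47) and Rps4x (−0.90 to 0.76) in aging. They changed for Rpl4 (−0.11 to 0.18) and Rps4l (−0.20 to 0.045) in the overexpression experiment. In the knockdown experiment they changed for Rpl13a (−0.39 to 0.13), Rpl19 (−0.048 to 0.33), Rpl29 (−0.39 to 0.030), Rpl41 (−0.10 to 0.43), Rpl5 (−0.15 to 0.42), Rplp1 (−0.13 to 0.16) and Rps27a (−0.037 to 0.57). At 581 to 2552 member reads per knockdown library, 45 of 82 members could be tested.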
